A study of Mus musculus with 24 samples.

Results

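Lipid droplet proteins and fatty acid uptake were examined as 10 genes in mouse liver: *Cd36*, *Fabp1*, *Plin2*, *Plin4*, *Plin5*, *Cidea*, *Cidec*, *G0s2*, *Pnpla2* and *Pnpla3*. A gene was taken when the array annotation gave a probe set its symbol and no other, and all 10 were found among 19938 genes with such a probe set, each with 1 probe set of 35556 in all. The 24 arrays came from the livers of 24 individually housed male C57BL6 mice, in 4 groups of 6: wild-type (WT) mice on chow, Ogg1-/- mice on chow, WT mice on a high-fat diet (HFD) and Ogg1-/- mice on the HFD. All mice were 10 weeks old at the start by the sample labels, while the study's text gives an older starting age, and they had free access to their diet for 10 weeks. Ogg1-/- mice lack 8-oxoguanine DNA glycosylase (OGG1), which removes oxidised guanine from DNA. The study's methods describe a germline allele kept on a C57BL/6J background through heterozygous matings, so that the gene is lost in every cell type of the liver and in all other organs. The 4 groups were compared for the transcripts of proteins that coat, fill and empty the hepatic lipid droplet, which were chosen as a readout of steatosis. Liver triglyceride and histology were not analysed here, so whether these transcripts follow liver fat was not tested.

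Hepatocytes store surplus fatty acid as triglyceride in lipid droplets, each a core of neutral lipid under a single phospholipid layer that carries the droplet's proteins. Fatty acids enter with the help of the membrane protein CD36 and are carried in the cytosol by the liver fatty acid binding protein FABP1. The perilipins (PLIN) coat the droplet and restrain lipolysis, and the CIDE proteins CIDEA and CIDEC let droplets exchange lipid and grow. The triglyceride lipase ATGL, encoded by *Pnpla2*, carries out the first step of lipolysis, the G0S2 protein inhibits it, and PNPLA3 is its close relative on the droplet. Much of this set is under the control of the nuclear receptors PPAR alpha, which answers to fatty acids in the fasted liver, and PPAR gamma, which is induced in fatty liver.

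The promoter windows of 5 genes are shown because they carry the results: *Plin2*, *G0s2* and *Pnpla2* differed between the genotypes on the HFD, and *Cd36*, *Plin2* and *Cidec* varied together from liver to liver. Each window runs from 250 bases before the annotated transcript start to 50 bases after it, is read 5′ to 3′ on the gene's strand, and comes from RefSeq on GRCm38.p6. Capitals mark 3 motifs, the nuclear receptor half-site AGGTCA (or TGACCT on the other strand), the E-box CACGTG and the CCAAT box (or ATTGG).
*Plin2*, chr4:86670010-86670309, minus strand: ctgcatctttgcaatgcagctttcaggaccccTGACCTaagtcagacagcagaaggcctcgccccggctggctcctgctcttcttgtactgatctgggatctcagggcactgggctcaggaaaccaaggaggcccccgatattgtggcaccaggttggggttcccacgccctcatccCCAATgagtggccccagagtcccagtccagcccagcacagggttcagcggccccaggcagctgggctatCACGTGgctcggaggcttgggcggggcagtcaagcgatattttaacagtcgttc
*Cd36*, chr5:17835847-17836146, minus strand: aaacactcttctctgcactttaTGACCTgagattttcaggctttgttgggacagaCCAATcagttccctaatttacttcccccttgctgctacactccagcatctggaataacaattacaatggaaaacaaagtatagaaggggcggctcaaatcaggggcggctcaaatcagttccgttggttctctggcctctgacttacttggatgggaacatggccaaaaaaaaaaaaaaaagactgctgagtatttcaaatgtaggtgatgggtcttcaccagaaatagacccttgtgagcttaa
*Cidec*, chr6:113435711-113436010, minus strand: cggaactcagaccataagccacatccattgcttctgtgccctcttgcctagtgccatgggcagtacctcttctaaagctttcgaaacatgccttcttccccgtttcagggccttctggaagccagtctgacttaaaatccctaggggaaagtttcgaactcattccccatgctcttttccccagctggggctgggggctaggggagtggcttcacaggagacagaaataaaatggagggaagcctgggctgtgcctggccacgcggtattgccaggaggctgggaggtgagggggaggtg
*G0s2*, chr1:193273139-193273438, minus strand: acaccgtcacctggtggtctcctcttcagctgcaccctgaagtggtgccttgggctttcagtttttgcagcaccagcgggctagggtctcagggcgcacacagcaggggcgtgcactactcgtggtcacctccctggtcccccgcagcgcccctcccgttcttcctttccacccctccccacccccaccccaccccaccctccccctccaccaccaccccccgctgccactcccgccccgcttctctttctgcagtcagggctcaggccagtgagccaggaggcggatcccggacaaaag
*Pnpla2*, chr7:141454938-141455237, plus strand: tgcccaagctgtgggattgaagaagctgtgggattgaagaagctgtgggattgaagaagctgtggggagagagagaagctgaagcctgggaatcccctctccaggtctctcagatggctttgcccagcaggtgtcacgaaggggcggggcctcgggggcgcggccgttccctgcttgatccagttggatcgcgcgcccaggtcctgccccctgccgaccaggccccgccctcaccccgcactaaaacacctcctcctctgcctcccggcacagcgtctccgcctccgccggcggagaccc
The half-site, which nuclear receptors such as the PPARs read in pairs, stood in the windows of *Cd36*, 228 bases before the start, and of *Plin2*, 218 bases before it, and also in those of *Fabp1* and *Plin5*. Of 32851 promoter windows of this length, 16.3% hold it. The *Plin2* window alone among those of 9 members examined held the E-box, beginning 4 bases before the start, a motif present in 7.15% of all windows. The *Cd36* and *Plin2* windows also hold a CCAAT box, as do those of *Plin4*, *Plin5* and *Pnpla3* and 37.4% of all windows. None of these 3 motifs was found in the windows of *G0s2*, *Pnpla2* and *Cidec*, which says only that these letters are not there. Also searched were TTATGTAA and TGTTTAC on both strands, in 0.938% and 3.65% of all windows and in none of these members, and TATAAA on the gene's strand, in 8.32% of all windows and in that of *Fabp1*. A pair of half-sites in the same direction, 1 base apart and with at most 1 letter changed, was searched too. It stood in 0.554% of all windows and, among the members, only in that of *Fabp1*. The half-sites of *Cd36* and *Plin2* are thus not part of such a pair. *Cidec* lies near *Ogg1* on chromosome 6, with 5 annotated genes between them, 4 of them protein-coding.

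The *Ogg1* probe set was lower in every Ogg1-/- liver than in every WT liver of the same diet, with median log2 values of 5.94 against 6.51 on chow and 5.87 against 6.46 on the HFD. Whether its probes fall within the deleted part is not stated in the sources used here. One chow array, Ogg1-/- replicate 1, stood apart, with an array weight of 0.161 where those of the other groups lay between 0.648 and 1.76 (limma's estimate of each array's precision, low for an array far from its group). On the main axis of differences within the chow groups, which took up 40.2% of the variation there, that liver scored 93.4, the Ogg1-/- livers on the HFD 31.0 to 67.3, and the WT livers on the HFD -8.21 to 22.9. Clock genes also moved with genotype and diet. Between the genotypes 8 of 12 passed the test on chow, beside 0.242% of all probe sets higher and 0.236% lower. On the HFD 10 of 12 passed, beside 10.3% and 9.55%. With diet 7 passed in WT livers, beside 0.532% and 0.394%, and 9 in Ogg1-/- livers, beside 4.58% and 4.94%. The sources used here do not give the hour at which livers were taken, so time of day and genotype cannot be told apart for any gene that follows the clock. Whether *Plin2*, *G0s2* and *Pnpla2*, which carry the genotype results on the HFD, are among these was not tested. The 10 hepatocyte markers had a summed log2 level of 16.83 to 16.97 in WT and 16.65 to 16.93 in Ogg1-/- livers on chow. On the HFD it was 16.75 to 16.91 and 16.68 to 16.80 in the same order. Every Ogg1-/- liver on the HFD was thus below every WT liver on chow. Of 6 adipocyte markers, 2 of which (*Plin1* and *Lipe*) also belong to the lists given further on, *Adipoq* had a mean of 4.44 in Ogg1-/- and 4.23 in WT livers on the HFD, with 0 of the 6 passing the test between the genotypes (1 in some alternatives).

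Of the 10 genes, 3 differed between the genotypes on the HFD, 0 on chow, and 1 in WT and 3 in Ogg1-/- livers with diet. A gene passed when limma gave it a p under 0.05 after Benjamini-Hochberg adjustment over the whole array. *G0s2* was the gene that passed most often, in 3 of the 4 comparisons. The plot of values by liver shows every measurement, and the plot of differences gives each with its interval.

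**Figure D1:**
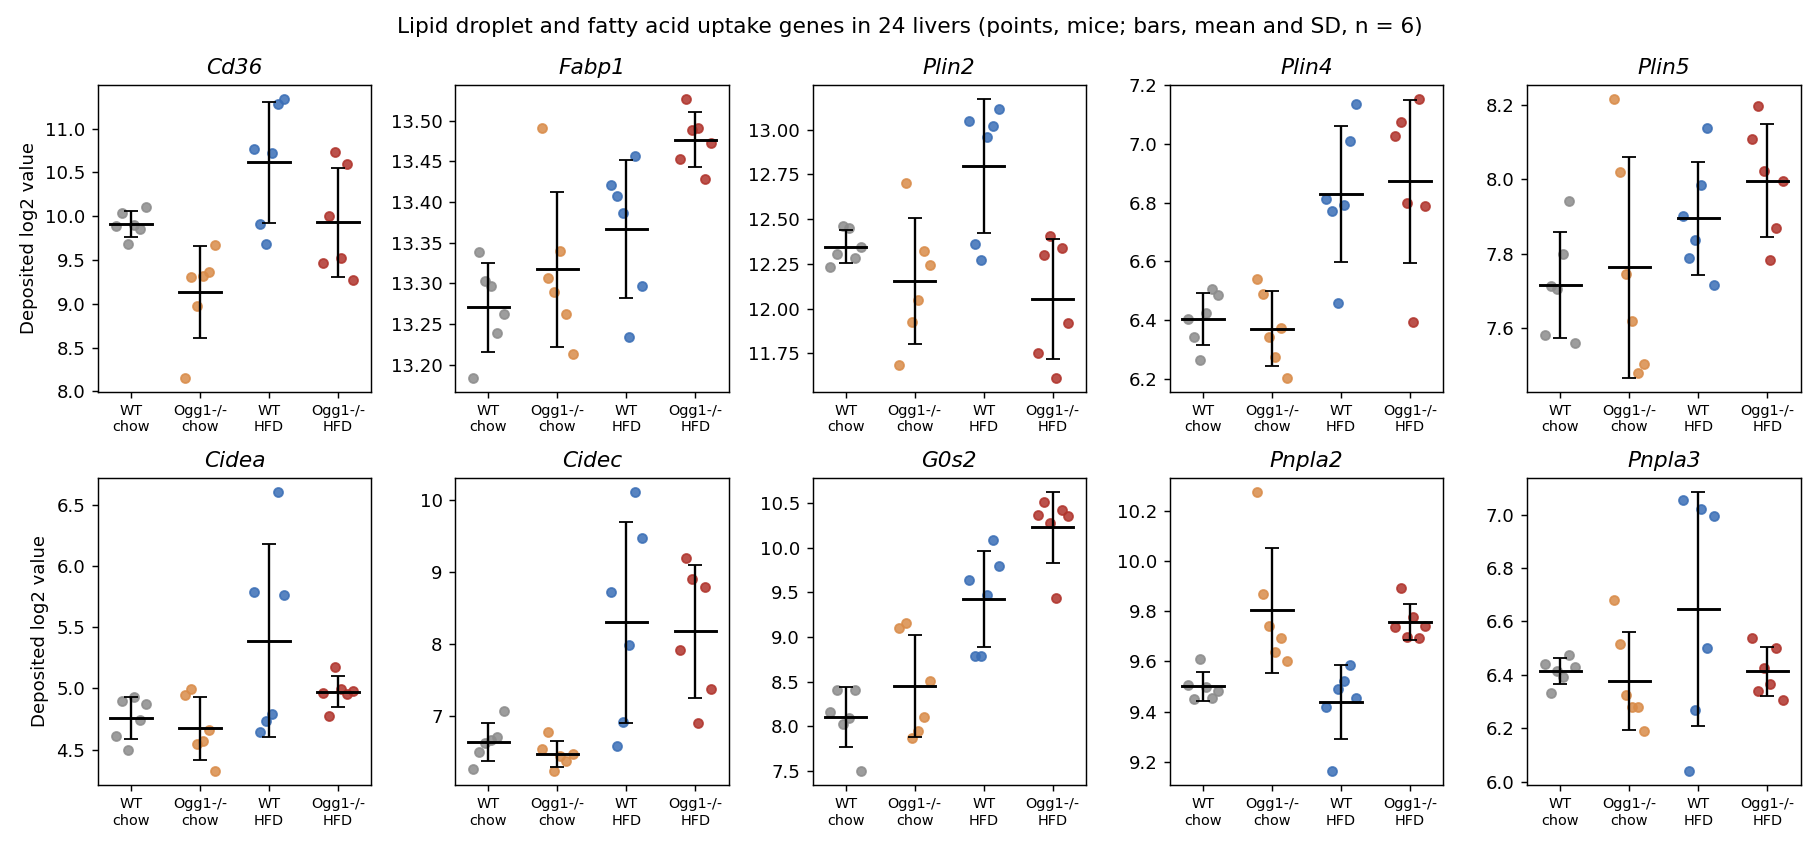
Deposited log2 values of the 10 genes (vertical axes, 1 scale per gene) in each of 24 livers, by group. Each point is 1 mouse, and black bars give the mean and SD of 6 mice. All 12 livers on the HFD have more *G0s2* than the chow livers of their genotype, and *Plin2* is high in 4 of the 6 WT livers on the HFD.

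**Figure D2:**
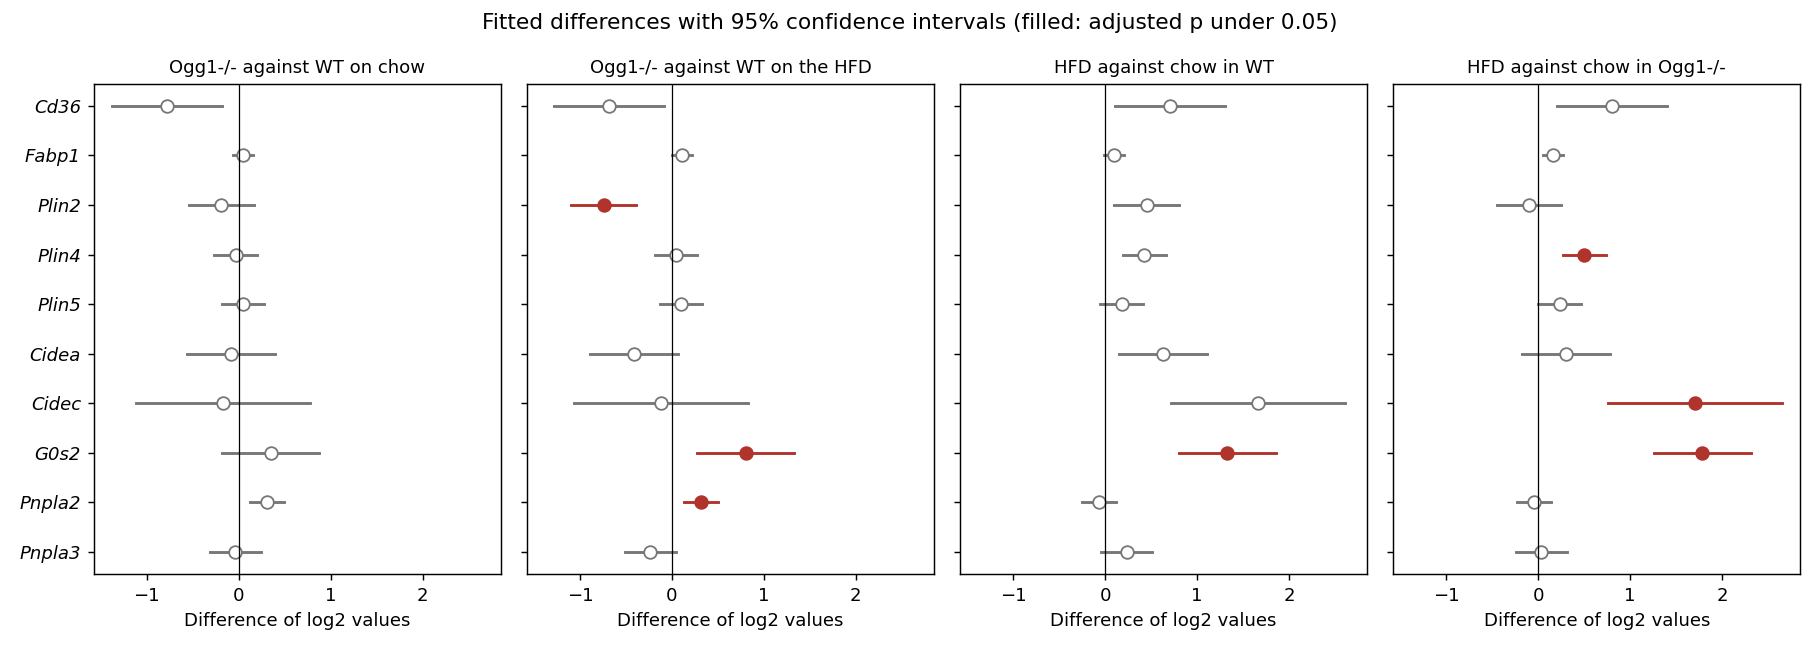
Fitted log2 differences (horizontal axis) of the 10 genes in 4 comparisons, with 95% confidence intervals from limma over 24 arrays. Filled red points passed at an adjusted p under 0.05: *Plin2*, *G0s2* and *Pnpla2* between the genotypes on the HFD, *G0s2* with diet in WT livers, and *Plin4*, *Cidec* and *G0s2* with diet in Ogg1-/- livers.

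On the HFD, Ogg1-/- livers had less *Plin2* and more *G0s2* and *Pnpla2* than WT livers. These 3 of 10 genes compare with 10.3% of all probe sets that were higher and 9.55% that were lower. The members' share is thus close to the background of this comparison, in which many probe sets passed. The median difference over the 10 genes was -0.04 on the log2 scale, against 0.02 over all probe sets. The genotypes did not overlap for 1 of the 10 genes, *Pnpla2*, beside 12.1% of all probe sets.

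*Plin2* encodes the perilipin that coats most hepatocyte droplets, and its protein is stable only when bound to lipid. On the HFD its log2 values ran from 12.27 to 13.12 with a median of 12.99 in WT livers and from 11.61 to 12.40 with a median of 12.11 in Ogg1-/- livers. The WT livers split, with replicates 1, 4, 5 and 6 above every Ogg1-/- liver and replicates 2 and 3, at 12.36 and 12.27, within the range of the Ogg1-/- livers. The difference was -0.74 (standard error 0.17, adjusted p = 0.00534), 1.67-fold lower in Ogg1-/- livers. It passed when any 1 liver was left out, between -0.85 and -0.65, but with the axis score as a covariate it was -0.57 with an adjusted p of 0.108. Its promoter window is the one above with both a half-site and an E-box.

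*G0s2* encodes the inhibitor of ATGL. It ran from 8.79 to 10.08 with a median of 9.55 in WT livers on the HFD and from 9.44 to 10.51 with a median of 10.36 in Ogg1-/- livers. Of the Ogg1-/- livers, 5 lay above every WT liver and replicate 4, at 9.44, lay among them. The difference was 0.80 (standard error 0.25, adjusted p = 0.0286), 1.74-fold higher. This call did not hold without WT replicate 2 or 3 (adjusted p = 0.0781 and 0.0661) or without Ogg1-/- replicate 1, 2, 5 or 6 (0.0596, 0.0631, 0.0529 and 0.0549), and with the axis score as a covariate the difference was 0.49 (adjusted p = 0.369).

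*Pnpla2*, which encodes ATGL itself, was between 9.16 and 9.58 with a median of 9.47 in WT livers and between 9.69 and 9.89 with a median of 9.74 in Ogg1-/- livers on the HFD. Every Ogg1-/- liver was above every WT liver, by a small margin. The difference was 0.32 (standard error 0.09, adjusted p = 0.0152), 1.25-fold higher. It was 0.13 (adjusted p = 0.350) with the axis score as a covariate. The lipase and its inhibitor were thus both higher in Ogg1-/- livers on the HFD.

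The other 7 genes did not pass between the genotypes on the HFD. *Cd36* ran from 9.68 to 11.34 with a median of 10.75 in WT livers and from 9.27 to 10.73 with a median of 9.76 in Ogg1-/- livers. They differed by -0.69 (standard error 0.29, adjusted p = 0.0997). The groups overlapped, and the call depended on single livers: without WT replicate 3 the adjusted p was 0.0302, and without Ogg1-/- replicate 3 it was 0.0425. It rose as high as 0.228, without WT replicate 6, and with the axis score as a covariate the difference was -0.23 (adjusted p = 0.745). *Cidea* ran from 4.65 to 6.60 with a median of 5.28 in WT livers and from 4.77 to 5.18 with a median of 4.97 in Ogg1-/- livers, where WT replicates 1, 5 and 6 lay above all Ogg1-/- livers (difference -0.41, standard error 0.23, adjusted p = 0.234). Without WT replicate 5, the highest, it was -0.17 (adjusted p = 0.582). *Pnpla3* was spread in WT livers, from 6.04 to 7.05 with a median of 6.75, and narrow in Ogg1-/- livers, from 6.31 to 6.54 with a median of 6.40 (difference -0.23, standard error 0.14, adjusted p = 0.250, and 0.0433 without WT replicate 2). The intervals of *Cidec*, *Plin4* and *Plin5* all included 0. For *Cidec* the interval was wide, from -1.07 to 0.82, since each genotype had livers near 7 and livers near 9. For *Fabp1* the difference was 0.11 (95% interval -0.0005 to 0.22, adjusted p = 0.161).

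Some markers of liver cell types also differed between the genotypes on the HFD, where 10.3% of all probe sets were higher and 9.55% were lower. Of 10 endothelial markers, 7 were lower in Ogg1-/- livers, and their summed level was between 12.10 and 12.32 on the log2 scale there and between 12.52 and 12.69 in WT livers. Of 9 stellate cell markers 3 were lower and 1 was higher, with sums of 11.85 to 12.53 against 12.45 to 12.92. Among 11 Kupffer cell and macrophage markers 3 were higher and 2 were lower, with overlapping sums of 12.66 to 12.92 against 12.62 to 12.94. Of 10 hepatocyte markers 1 was higher and 1 was lower, near the share of all probe sets. With the axis score as a covariate, 0 endothelial, 0 stellate cell and 0 hepatocyte markers and 1 Kupffer cell and macrophage marker passed. With diet in Ogg1-/- livers, 1 of 6 adipocyte and 3 of 11 Kupffer cell and macrophage markers were higher, beside 4.58% of probe sets. Lower were 5 of 10 endothelial and 1 of 9 stellate cell markers, beside 4.94%, and 1 hepatocyte marker went each way. That endothelial count ran from 0 to 8 when 1 liver was left out. In WT livers only 1 hepatocyte marker passed with diet, and it was lower. *Cd36* is also made by endothelial cells and macrophages. Fewer cells of a type and less RNA per cell cannot be told apart in whole liver, and the part of these cell types in the results was not tested.

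On chow, 0 of the 10 genes passed between the genotypes with limma, and 2 had an unadjusted p under 0.05, *Cd36* and *Pnpla2*. Of all 35556 probe sets, 6393 had an unadjusted p under 0.05 in this comparison. After adjustment, 0.242% passed as higher and 0.236% as lower. *Cd36* ran from 8.16 to 9.67 with a median of 9.31 in Ogg1-/- livers and from 9.68 to 10.11 with a median of 9.89 in WT livers. The groups did not overlap, as for 1.06% of all probe sets, with the highest Ogg1-/- liver just under the lowest WT liver. The difference was -0.78 (standard error 0.29, adjusted p = 0.180), and -0.58 (adjusted p = 0.441) without Ogg1-/- replicate 1, the liver at 8.16 that stood apart.

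*Pnpla2* on chow ran from 9.60 to 10.28 with a median of 9.72 in Ogg1-/- livers and from 9.45 to 9.61 with a median of 9.49 in WT livers. Ogg1-/- replicate 1 was the highest, and 1 WT liver lay within the Ogg1-/- range. The difference of 0.30 (standard error 0.09, adjusted p = 0.124) passed without Ogg1-/- replicate 6 (adjusted p = 0.0451). It was 0.21 (adjusted p = 0.232) without replicate 1, and 0.17 (adjusted p = 0.458) with the axis score as a covariate. *G0s2* differed by 0.35 (95% interval -0.18 to 0.87), by 0.20 without Ogg1-/- replicate 2, 0.22 without replicate 1 and 0.23 without WT replicate 6, by 0.13 with array weights, and by 0.12 (adjusted p = 0.940) with the axis score as a covariate. For *Plin2* the Ogg1-/- livers on chow, from 11.69 to 12.70, lay on both sides of the WT livers, from 12.23 to 12.46. The other 6 genes had adjusted p-values of 0.693 to 0.922 between the genotypes on chow.

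With the HFD, *G0s2* rose in both genotypes, and *Cidec* and *Plin4* rose in Ogg1-/- livers. In WT livers 1 of 10 genes passed, beside 0.532% of all probe sets that were higher and 0.394% that were lower. In Ogg1-/- livers 3 of 10 passed, all higher, beside 4.58% higher and 4.94% lower. The median difference over the 10 genes was 0.44 in WT and 0.27 in Ogg1-/- livers, against 0.02 over all probe sets in each. Both diet comparisons and both genotype comparisons share groups, so their values are not independent.

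*G0s2* in WT livers ran from 7.50 to 8.41 with a median of 8.13 on chow and from 8.79 to 10.08 with a median of 9.55 on the HFD. In Ogg1-/- livers it ran from 7.86 to 9.16 with a median of 8.30 on chow and from 9.44 to 10.51 with a median of 10.36 on the HFD. In each genotype all livers on the HFD lay above all livers on chow. The rise was 1.33 (standard error 0.25, adjusted p = 0.00987), 2.51-fold, in WT livers and 1.78 (standard error 0.25, adjusted p = 0.000219), 3.44-fold, in Ogg1-/- livers. These 2 calls held under every alternative run. Without overlap were *G0s2* in WT livers, beside 2.25% of all probe sets, and *G0s2* and *Cidec* in Ogg1-/- livers, beside 2.40%.

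*Cidec*, whose protein concentrates at droplet contacts and lets lipid pass into the larger droplet, had the widest range of the 10 genes. In Ogg1-/- livers it ran from 6.24 to 6.77 with a median of 6.46 on chow and from 6.90 to 9.19 with a median of 8.35 on the HFD. All livers on the HFD were above all on chow, with replicates 4 and 6 the lowest at 6.90 and 7.37. The rise was 1.70 (standard error 0.46, adjusted p = 0.0225), 3.26-fold, and did not pass without Ogg1-/- chow replicate 5 or 6 (adjusted p = 0.0554 and 0.0500) or without Ogg1-/- HFD replicate 2 (0.0595). It also missed the threshold by the methods' t-test (0.0592) and with the axis score as a covariate (0.0636), the latter with the difference still 1.70.

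In WT livers *Cidec* ran from 6.27 to 7.07 with a median of 6.65 on chow and from 6.59 to 10.11 with a median of 8.35 on the HFD. Replicates 2 and 3 on the HFD, at 6.59 and 6.92, remained within the chow range, while the other 4 lay at 7.98 or higher. The difference was as large as in Ogg1-/- livers, 1.66 (standard error 0.46, adjusted p = 0.0912), and it passed without replicate 2 (adjusted p = 0.0216) or replicate 3 (adjusted p = 0.0443). *Cidea*, its relative that is scarce in lean liver, differed by 0.63 (standard error 0.23, adjusted p = 0.223) in WT and by 0.30 (standard error 0.23, adjusted p = 0.453) in Ogg1-/- livers.

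*Plin4*, a perilipin of small nascent droplets, ran from 6.20 to 6.54 with a median of 6.36 in Ogg1-/- livers on chow and from 6.39 to 7.15 with a median of 6.91 on the HFD. Replicate 4 on the HFD was the only one of the 6 not above all chow livers. The rise was 0.50 (standard error 0.11, adjusted p = 0.00821), 1.42-fold, and did not pass by the methods' t-test (adjusted p = 0.0745). In WT livers the values were 6.26 to 6.51 with a median of 6.41 on chow and 6.46 to 7.14 with a median of 6.80 on the HFD, where replicate 3 lay within the chow range (0.43, standard error 0.11, adjusted p = 0.0694). The call in WT livers passed without Ogg1-/- chow replicate 1 (0.0464), WT HFD replicate 3 (0.0273) or Ogg1-/- HFD replicate 4 (0.0274).

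*Plin2* did not pass with diet in either genotype. It differed by 0.45 (95% interval 0.10 to 0.80, adjusted p = 0.239) in WT livers, and by -0.10 (95% interval -0.45 to 0.25, adjusted p = 0.767) in Ogg1-/- livers. *Plin5*, the perilipin that ties droplets to mitochondria in oxidative tissue, differed by 0.18 (standard error 0.11, adjusted p = 0.501) and 0.23 (standard error 0.11, adjusted p = 0.194). The latter was 0.32 (adjusted p = 0.0200) without Ogg1-/- chow replicate 1, which had the highest *Plin5* of the 24 livers, 8.22.

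Of the uptake and transport genes, *Cd36* differed with diet by 0.71 (standard error 0.29, adjusted p = 0.283) in WT and by 0.80 (standard error 0.29, adjusted p = 0.0819) in Ogg1-/- livers. The Ogg1-/- livers on the HFD, from 9.27 to 10.73, lay on both sides of the WT livers on chow, from 9.68 to 10.11, and 3 of the 6 were below all of these. *Fabp1* changed little, by 0.10 (standard error 0.05, adjusted p = 0.440) and 0.16 (standard error 0.05, adjusted p = 0.0595). Without Ogg1-/- chow replicate 1 the latter was 0.19 with an adjusted p of 0.00492. The probe set lay between 13.18 and 13.53 in all 24 livers, near the top of the array's range of 1.81 to 14.8. For the lipases the diet differences were small: *Pnpla2* differed by -0.06 and -0.05, with 95% intervals of -0.25 to 0.12 and -0.23 to 0.14, and *Pnpla3* by 0.23 and 0.03, with intervals of -0.05 to 0.51 and -0.25 to 0.31 (WT and Ogg1-/- livers in turn).

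Whether the genotype effect differed between the diets was tested directly. With limma 0 of 10 genes passed, beside 0.00281% of all probe sets (1 of 35556). In that fit 1 of the 10, *Plin2*, had an unadjusted p under 0.05, as did 2447 of all 35556 probe sets. The genotype difference of *Plin2* was -0.19 on chow and -0.74 on the HFD, and the difference between these was -0.55 (95% interval -1.05 to -0.05, adjusted p = 0.678). For *G0s2* the difference between diets was 0.46 (95% interval -0.29 to 1.20). For *Pnpla2* it was 0.02 (95% interval -0.25 to 0.28) and for *Cd36* 0.09 (95% interval -0.76 to 0.94). The other 6 genes had intervals that included 0. None of the genotype effects described for the HFD is thus shown to differ from that on chow.

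Mice of the same group differed from one another along several of these genes at once. In WT livers on the HFD, replicates 2 and 3 were the lowest pair for 7 of the 10 genes: *Cd36*, *Plin2*, *Plin4*, *Cidea*, *Cidec*, *G0s2* and *Pnpla3*. For *Cd36*, *Plin2*, *Cidea* and *Cidec* both of them lay within the chow range of WT livers, for example at 9.91 and 9.68 for *Cd36*. Among Ogg1-/- livers on the HFD, replicate 4 was the lowest for *Plin2*, *Plin4*, *Plin5*, *Cidec* and *G0s2*. How often these livers were lowest over all probe sets was not counted. Neither pattern is thus shown to be particular to the 10 genes. The map of each liver against the WT chow mean shows both patterns.

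**Figure D3:**
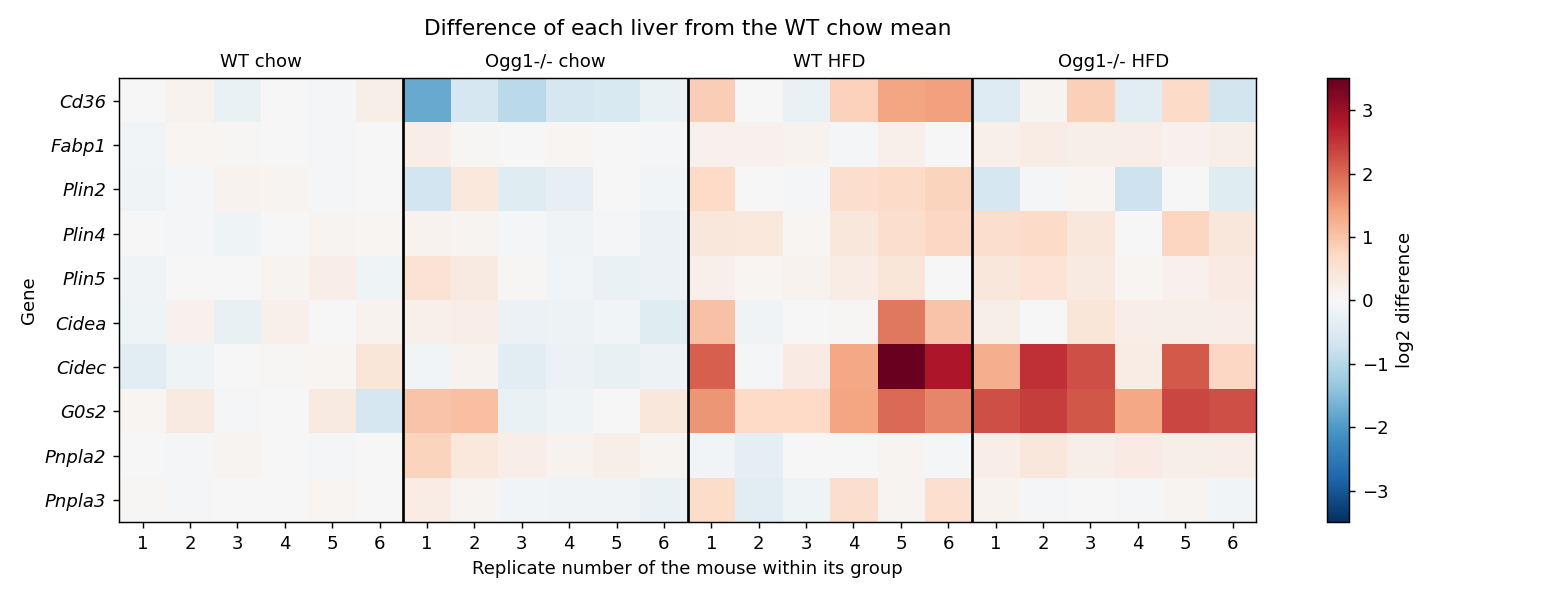
Log2 difference of each of 24 livers (columns, by group and replicate number) from the mean of the WT livers on chow, for the 10 genes (rows). Red is higher and blue is lower. *Cidec* and *G0s2* are higher in most livers on the HFD, and WT replicates 2 and 3 on the HFD are pale for *Cidec*, at 6.59 and 6.92.

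Over the 24 livers, with each value taken as its deviation from its group mean, 39 of the 45 pairs of genes had a positive Pearson's r, with a median of 0.42. By permutation within groups, 10 pairs passed at an adjusted p under 0.05 over the 45 for Pearson's r and 7 for Spearman's rho. Such counts were not made for pairs of other genes, so varying together is not shown to be particular to these 10. The strongest relation was between *Cd36* and *Plin2*, with r = 0.82 and rho = 0.81 (permutation test, two-sided, p = 0.000180 and 8.00e-05, adjusted p = 0.00450 and 0.00360), and r = 0.75 without the 2 livers farthest from the median of *Cd36*. *Cd36* and *Cidec* had r = 0.75 and rho = 0.70 (adjusted p = 0.00945 and 0.0192 by permutation), and *Plin2* and *Cidec* r = 0.74 and rho = 0.76 (0.00450 and 0.0119 in the same way). Without the 2 farthest livers these were 0.81 and 0.76. Within the diets, r for *Cd36* with *Plin2* was 0.91 over the 12 livers on the HFD and 0.63 over the 12 on chow, and for *Cd36* with *Cidec* it was 0.88 and 0.09. Whether these differ between the diets was not tested.

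*Cidea* with *Cidec* (r = 0.73) and *Plin4* with *Cidec* (r = 0.71) also passed for Pearson's r, with 0.50 and 0.57 without the 2 farthest livers. The correlation of *Cidea* with *Cidec* did not pass for Spearman's rho (0.58, adjusted p = 0.117 by permutation). *Plin5* with *Pnpla2* passed for Pearson's r (0.71, and 0.54 without the 2 farthest livers) but not for Spearman's rho (0.53, adjusted p = 0.104 by permutation). *G0s2* with *Plin4* and with *Plin5* (r = 0.66 for each) passed for both measures, with 0.50 and 0.60 without the 2 farthest livers. *Cidec* with *G0s2* also passed for both (r = 0.64, and 0.52 without the 2 farthest livers). Its r was 0.90 over the 12 livers on the HFD and 0.13 over the 12 on chow, a difference that was not tested. *Cidea* with *G0s2* passed for Pearson's r (0.58, and 0.43 without the 2 farthest livers) but not for Spearman's rho (0.56, adjusted p = 0.104 by permutation). *Cd36* against *Pnpla2* had r = -0.91 over the 12 chow livers and 0.26 over the 12 on the HFD, where the chow value includes Ogg1-/- replicate 1, lowest for *Cd36* and highest for *Pnpla2*. All points share arrays and the same normalization.

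**Figure D4:**
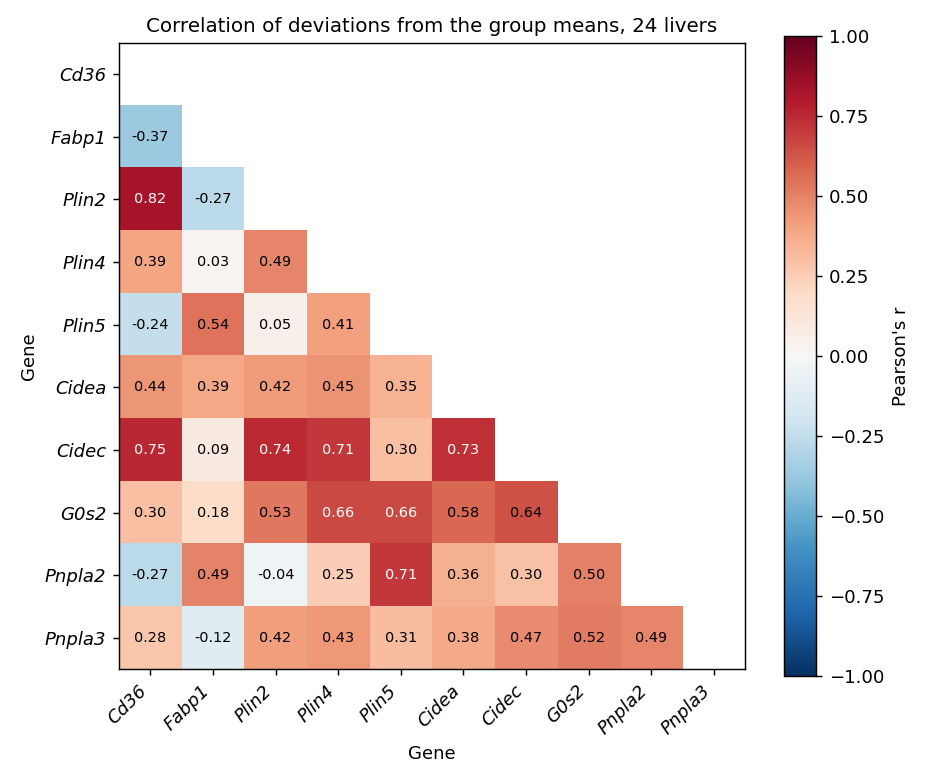
Pearson's r between the 10 genes (rows and columns) over 24 livers, computed on deviations from the 4 group means. Red is positive and blue is negative. The highest value is 0.82, between *Cd36* and *Plin2*, and the lowest is -0.37, between *Cd36* and *Fabp1*.

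Over all 19938 genes, those most like *Plin2* from liver to liver within the groups were *Cldn2* (r = 0.85), *Cd36* (0.82) and *Cyp2c38* (0.82). Most like *G0s2* were *Acot2* (0.83), *Acot3* (0.82) and *Tor3a* (0.82). *Acot2* and *Acot3* encode acyl-CoA thioesterases of mitochondria and peroxisomes, and *Acot3* was 1.44 higher in Ogg1-/- livers on the HFD (adjusted p = 0.00424) while *Acot2* differed by 0.54 (adjusted p = 0.0797). Most like *Pnpla2* were *Gpihbp1* (0.92), *Lsm10* (0.91) and *Aldoa* (0.90), over 24 livers, and 0.83 for each without Ogg1-/- chow replicate 1. These values describe the ranking and carry no test.

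Beyond the 10 genes, 59 others of the pathway were counted in 5 lists, which hold fatty acid uptake and transport, further droplet coats and biogenesis proteins, further lipases, transcription factors, and further PPAR gamma targets. Between the genotypes on the HFD 12 of the 59 were higher, 11 were lower and 36 did not pass, beside 10.3% and 9.55% of all probe sets. With the axis score as a covariate, those that passed were 0 uptake and transport genes, 1 coat or biogenesis gene, 1 lipase, 1 transcription factor and 0 of the PPAR gamma targets. On chow 0 of the 59 passed with limma, and 17 had an unadjusted p under 0.05, as did 6393 of all 35556 probe sets. With diet 4 were higher and 1 was lower in WT livers, beside 0.532% and 0.394% of all probe sets. In Ogg1-/- livers 11 were higher and 4 lower, beside 4.58% and 4.94%. The background shares in percent hold for the counts of genes that passed in each list that follows.

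Of 16 uptake and transport genes, 2 were higher and 2 were lower in Ogg1-/- livers on the HFD. *Slc27a4*, a fatty acid transporter with acyl-CoA synthetase activity, ran from 8.55 to 8.93 with a median of 8.67 in Ogg1-/- and from 8.16 to 8.44 with a median of 8.23 in WT livers (difference 0.47, standard error 0.10, adjusted p = 0.00353). *Acsl4*, an acyl-CoA synthetase with a preference for arachidonate, ran from 6.92 to 7.89 with a median of 7.64 in Ogg1-/- and from 8.02 to 9.17 with a median of 8.75 in WT livers (-1.15, standard error 0.26, adjusted p = 0.00469). Neither gene overlapped between the genotypes. *Fabp2*, the intestinal type of fatty acid binding protein, rose with diet by 1.52 in WT and 1.69 in Ogg1-/- livers (adjusted p = 9.41e-07 and 2.28e-07), from medians of 9.96 and 9.74 on chow to 11.33 and 11.46 on the HFD.

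Of 14 further coat and biogenesis genes, 3 were higher and 4 were lower in Ogg1-/- livers on the HFD. *Fitm2*, which binds triglyceride in the endoplasmic reticulum where droplets form, was higher in Ogg1-/- livers on the HFD by 0.28 (adjusted p = 0.0430) and rose with diet by 0.44 in WT and 0.58 in Ogg1-/- livers (adjusted p = 0.0245 and 0.000875). *Fitm1*, its relative, rose with diet by 0.84 in Ogg1-/- livers (adjusted p = 0.00347), with a difference of 0.37 in WT livers (adjusted p = 0.317). *Ldah*, a droplet-associated hydrolase, ran from 8.89 to 9.28 with a median of 9.14 in Ogg1-/- and from 9.47 to 9.93 with a median of 9.78 in WT livers on the HFD, without overlap (-0.63, standard error 0.13, adjusted p = 0.00306).

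Of 16 further lipases and cofactors, 2 were higher and 3 were lower in Ogg1-/- livers on the HFD. *Mgll*, the monoacylglycerol lipase that completes lipolysis, was higher by 0.39 there (adjusted p = 0.0458) and rose with diet by 0.86 in WT and 0.91 in Ogg1-/- livers, without overlap between the diets. *Ces2a*, a carboxylesterase, fell with diet, by differences of -1.49 and -1.13 in the same order, again without overlap. *Pnpla8*, a phospholipase of the patatin family, was lower in Ogg1-/- livers on the HFD by a difference of -1.05 (standard error 0.26, adjusted p = 0.00773).

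Of 11 transcription factors, 5 were higher and 2 were lower in Ogg1-/- livers on the HFD. *Srebf1*, the regulator of fatty acid synthesis, ran from 10.85 to 11.21 with a median of 10.91 in Ogg1-/- and from 9.75 to 10.45 with a median of 10.02 in WT livers, without overlap (0.92, standard error 0.18, adjusted p = 0.00256). *Foxo1* and *Rxra*, the latter the partner of the PPARs on DNA, were higher by 0.47 and 0.48 (adjusted p = 0.00453 and 0.00487). *Pparg*, chosen after its values were seen because it regulates *Cidec*, *Cidea* and *Cd36* in fatty liver, ran from 8.40 to 9.27 with a median of 8.65 in Ogg1-/- and from 8.55 to 9.99 with a median of 9.74 in WT livers on the HFD (-0.78, standard error 0.22, adjusted p = 0.0140). The genotypes overlapped for *Pparg*, and with diet it differed by 0.45 in WT (adjusted p = 0.369) and 0.14 in Ogg1-/- livers (adjusted p = 0.745).

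Of 4 further PPAR gamma targets, 0 passed between the genotypes on either diet with limma. The numbers with an unadjusted p under 0.05 were 1 on chow and 0 on the HFD. Of all 35556 probe sets, 6393 on chow and 11198 on the HFD had such a p. *Mogat1*, a monoacylglycerol acyltransferase, and *Fabp4*, the fatty acid binding protein of adipocytes and macrophages, rose with diet in Ogg1-/- livers by 1.55 (adjusted p = 0.00768) and 0.68 (adjusted p = 0.00966), with differences of 1.15 (adjusted p = 0.119) and 0.62 (adjusted p = 0.0559) in WT livers. The plot of the named pathway genes sets the 4 comparisons side by side.

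**Figure D5:**
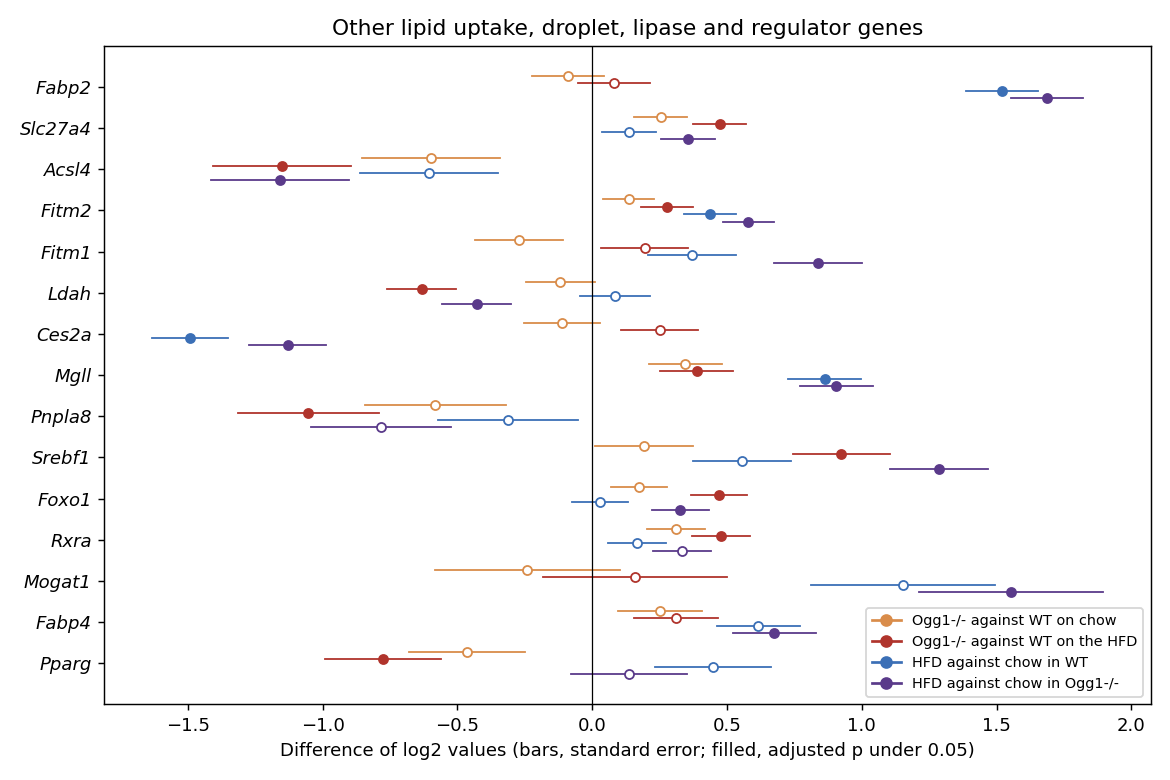
Log2 differences (horizontal axis) of 15 further genes of lipid uptake, droplets, lipolysis and their regulation (rows) in 4 comparisons, with standard errors as bars. Filled points passed at an adjusted p under 0.05. *Fabp2*, *Fitm2*, *Mgll* and *Ces2a* passed with diet in both genotypes, and 0 of the 15 passed between the genotypes on chow.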

How the data were processed

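Liver RNA of 24 male mice was hybridised to the Affymetrix Mouse Gene ST array, 1 array per mouse. The authors deposited 1 log2 value per probe set and array, between 1.81 and 14.8, made by robust multiarray averaging (RMA) according to the submitters' processing notes. No genome build is stated for the array annotation, and the GRCm38.p6 annotation served for symbols, neighbouring genes and promoter windows. All value columns were mapped to a sample. RMA adjusts each array to a common distribution, so that a shift shared by most genes is removed. A change is therefore relative to the other genes of the array, and scanner saturation of bright probe sets cannot be seen.

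All 35556 probe sets were fitted as 4 group means by lmFit and eBayes of limma 3.58.1 (R 4.3.3), on the deposited values with no filter. P-values received a Benjamini-Hochberg adjustment over the whole array, and a gene passed at an adjusted p under 0.05. The fit was tested on simulated data. The annotation gives 1 symbol to 21789 probe sets (21698 of them matched by Entrez identifier), several to 1621 and none used here to 12146. Where a gene had several probe sets, the one brightest on average was used. Precision is limited by the number of arrays.

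The members, lists and tests were chosen with earlier results of these data known. The text names all 10 members, *Ogg1*, up to 3 genes per pathway list with the smallest p among those that passed in a comparison of 2 groups, and the 3 genes most like each member that passed between the genotypes on the HFD. Correlations were tested with 100000 permutations within groups (SciPy 1.17.1), adjusted over 45 pairs. Replicate numbers did not pair the mice: over 36 pairs of groups and replicates, residual correlations ran from -0.27 to 0.43 with a median of -0.03. The alternatives were a replicate block, quantile normalization, median centring, leaving out probe sets with a mean under 5, the 12 arrays of each comparison alone, the methods' t-test, a trended robust prior, array weights, 1 probe set or the mean of the probe sets per gene, an added 1.5-fold threshold, a covariate made of the scores on the main axis of the chow groups, and leaving out each array in turn. The methods describe the study's own tests as a t-test in GeneSifter and limma in Ingenuity iReport. Genes of the lists that carry no probe set with a single symbol were not analysed here.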

Additional observations from a re-analysis of the deposited data

Results flagged for a closer look

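Of 40 groups of 6 livers examined, 1 per gene and group, 2 held a liver far from the other 5 by Dixon's criterion (a gap of more than 0.625 of the group's range). Chance alone gives such a liver in about 1 group in 20. *G0s2* was 9.44 in Ogg1-/- replicate 4 on the HFD, where the nearest of the other livers was at 10.28. *Pnpla2* was 9.61 in WT replicate 3 on chow, where the nearest was at 9.51.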

How the results depend on the processing

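With the replicate number as a block, the counts of members that passed were 3 between the genotypes on the HFD, 0 on chow, 1 and 3 with diet in WT and Ogg1-/- livers and 0 in the interaction, the same counts as without it. Between the genotypes on the HFD, 0 members passed with the axis score as a covariate, and 2 to 4 when 1 liver was left out. On chow the range was 0 to 1 when 1 liver was left out. With diet in WT livers, 2 passed when dim probe sets were left out, with 1 probe set per gene and with the mean over probe sets, 3 passed with array weights, and 1 to 3 without 1 liver. With diet in Ogg1-/- livers, 1 passed by the methods' t-test, 6 with array weights, and 2 to 5 without 1 liver.

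Of 7 member values with a call, 5 lost it under at least 1 alternative (16 times in all), and of 43 without a call 8 gained one (22 times in all), and no called value changed sign. By the methods' t-test the calls lost were *G0s2* between the genotypes on the HFD (adjusted p = 0.0594), and *Cidec* and *Plin4* with diet in Ogg1-/- livers (0.0592 and 0.0745). The cause of these changes was not tested. Adjustment over fewer probe sets applies to the settings with 1 value per gene or without dim probe sets. The axis includes Ogg1-/- chow replicate 1, so values with it as a covariate rest in part on that liver, and an effect of genotype along the axis is removed with it. *Fabp1* was bright in all livers. *Cidea* was dim on chow, with a lowest value of 4.33, and also in Ogg1-/- livers on the HFD, from 4.77 to 5.18. In WT replicates 2, 3 and 4 on the HFD it was 4.65, 4.73 and 4.79. Between the genotypes on the HFD, the count of transcription factors was 4 in place of 7 without WT replicate 1 or 6 or Ogg1-/- replicate 1 or 2, and that of coat and biogenesis genes 4 in place of 7 without WT replicate 1, 2 or 6 or Ogg1-/- replicate 1, 2 or 6. The count of lipases was 2 or 3 in place of 5 without WT replicate 2, 3, 4 or 6 or Ogg1-/- replicate 1, 2, 3 or 6. Kupffer cell and macrophage markers ran from 1, without Ogg1-/- replicate 1, to 8, without Ogg1-/- chow replicate 1, in place of 5, and were 2 or 3 without WT replicate 2, 4 or 6 or Ogg1-/- replicate 6. Stellate cell markers were 2 in place of 4 without Ogg1-/- replicate 1 or 6, and hepatocyte markers 4 in place of 2 without Ogg1-/- chow replicate 1.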
